A study of Mus musculus with 6 samples.

Results

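The genes described here are 10 collagens that do not form the striated fibrils of collagens I, III and V: Col6a1, Col6a2, Col6a3, Col8a1, Col12a1, Col13a1, Col14a1, Col15a1, Col16a1 and Col18a1. They were taken by gene symbol from a table of 27998 genes, which holds 44 collagen genes in all, and all 10 had counts. Each was followed through 4 classes of mouse lung mesenchymal cells and through mural, mesothelial and endothelial cells. The genes had been put forward as restricted to mesenchymal subtypes, and that description held unevenly. Col13a1, Col14a1 and Col12a1 each stood highest in 1 class with an interval apart from every other class, and Col8a1 did so in mural cells. Col6a1, Col6a2, Col6a3 and Col16a1 were found in all 4 mesenchymal marker classes, as was Col14a1 at graded levels. In pooled cells the collagen VI genes were also highest in 1 class, with an interval apart from every other class, but by smaller ratios. Col6a2 did not lead in that class in suffix 1, a part of the table described below.

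Collagen VI is built from chains that assemble into a heterotrimer and then into beaded microfilaments around cells, and Col6a1, Col6a2 and Col6a3 encode its 3 classical chains. Collagen VIII is a short-chain collagen that forms networks in vessel walls. Collagens XII, XIV and XVI belong to the fibril-associated group, which decorates the surface of larger fibrils, and collagen XIII is a transmembrane protein at sites of cell adhesion. Collagens XV and XVIII are the multiplexins, which carry heparan or chondroitin sulfate chains, sit at basement membranes and release endostatin-like fragments. In lung, Col13a1 and Col14a1 are widely used as names for a pair of matrix fibroblast types.

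The data are single-cell RNA counts made with the 10x Genomics 3′ kit, version 2, in which unique molecular identifiers (UMIs) count each captured RNA molecule once. The mice carried SMA-GFP (a green reporter for the smooth muscle actin gene), Tbx4cre and RosaTdTomato, so tdTomato marks cells with a history of Cre from the lung mesenchyme gene Tbx4. Lung cells negative for Epcam, CD31 and CD45 were sorted into SMA+Tm+, SMA-Tm+ and SMA-Tm- gates. Each of these 3 gates was taken from normal mice (day 0) and from bleomycin treated mice on day 21 (bleomycin is an injury drug used to induce fibrosis), which gives 6 samples with 1 sample per gate and day. The labels give no age, strain, dose or number of mice, and nothing in them says whether animals were pooled. The deposited table pools all barcodes, which end in a suffix from 1 to 6. No suffix could be tied to a labelled sample, so no gate or day was compared. The pooled table was treated as 1 sample with no test between classes, values are also given by suffix, and each interval below is a 95% interval that covers counting error only.

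Of 10410 barcodes, 9919 were analysed, with a median of 2699 UMIs per cell. Suffixes stood apart before any class was drawn: suffix 4 held 72.5% and suffix 1 held 21.8% of mesenchymal cells. Y-linked RNA stood at 301 to 323 UMIs per 1000000 (CPM) in suffixes 1 to 3 and at no more than 1.15 CPM in suffixes 4 to 6, where Xist stood at 1466 to 1921 CPM, so suffixes 1 and 4 hold RNA of different sexes. There were 55 barcode sequences seen with 2 or more suffixes, carried by 94 analysed cells. Although the sort was meant to remove them, 615 endothelial cells, 3607 leukocytes and 81 epithelial cells passed their gates. The leukocytes serve here as the background for free RNA.

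Mesenchymal cells were those with 3 or more UMIs of Col1a2 plus Col3a1 (fibrillar collagens of connective tissue cells), and 2485 such cells fell in no other gate. A marker class holds the cells in which 1 of 4 genes was detected and the other 3 were not. These genes were Hhip, a hedgehog inhibitor that marks ductal myofibroblasts, Npnt, a matrix ligand that marks alveolar fibroblasts, Pi16, a peptidase inhibitor that marks adventitial fibroblasts, and Rbp4, which encodes a retinol carrier. There were 404 Hhip+ cells, 652 Npnt+ cells, 134 Pi16+ cells and 248 Rbp4+ cells. A further 194 cells had none of the 4 genes, and 853 cells (34.3%) had several and were set aside. By number of cells, markers overlapped most for Npnt and Rbp4 (391 cells) and for Pi16 and Rbp4 (268 cells). These counts are not scaled to how common each marker is: Npnt was detected in 1123, Rbp4 in 1006 and Pi16 in 437 mesenchymal cells. Mural cells (pericytes and smooth muscle, 47 cells with 2 or more of Higd1b, Cox4i2 and Notch3) and mesothelial cells (96 cells, the lung's outer lining) had gates of their own.

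Marker lists were summed without the genes that draw the classes, which are high or at 0 in them by construction. The other 5 ductal myofibroblast genes summed to 5414 CPM in Hhip+ cells and to between 166 and 372 CPM in the other 3 marker classes. The other 5 alveolar genes reached 3519 CPM in Npnt+ cells, against 63.2 to 746 CPM. The other 5 adventitial genes reached 4686 CPM in Pi16+ cells but also 1903 CPM in Rbp4+ and 926 CPM in Npnt+ cells. The 2 other genes of the Rbp4 list did not set its class apart, at 95.7 CPM in Rbp4+ cells and 93.0 CPM in Pi16+ cells, so Rbp4+ cells are named here by their gene alone. The 9 other mural genes stood at 4186 CPM in mural cells and at 1368 CPM in Hhip+ cells. There Trpc6 was at 0, Kcnj8 was at 297 CPM (136 CPM in mural cells), Abcc9 at 146 CPM (157 CPM) and Acta2 at 526 CPM (1162 CPM). Without their gate genes the mesothelial and endothelial lists reached 1571 CPM and 7337 CPM in their own gates. Also without gate genes, the leukocyte list lay between 25.4 and 53.2 CPM in the 4 marker classes. The epithelial list reached 663 CPM in Rbp4+ cells (846 CPM in suffix 4 and 72.4 CPM in suffix 1). Sftpc alone gave 608 CPM of it, against 13.9 to 25.5 CPM in the other marker classes, with Krt18 at 0. Epcam and Cdh1 draw the epithelial gate, so they are low here by construction. The mesothelial list was at 198 CPM in Hhip+ cells, with Krt8 and Muc16 at 0 and Cxcl13 alone at 195 CPM. It was at no more than 66.1 CPM in the other marker classes. The part of these lists in the results was not tested.

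RefSeq promoter entries (assembly GRCm38.p6) matched 8 of the 10 genes, and Col12a1 and Col14a1 were not matched. The 4 shown are those of Col13a1 and Col8a1, the genes held most to 1 class, beside Col6a2 and Col6a3, chains found in every mesenchymal class. Each run is the 250 bases before the annotated start, 5′ to 3′ on the gene's strand, with matches to any searched motif in capitals. The Col13a1 window is chr10:61979109-61979358, the Col8a1 window chr16:57754738-57754987, the Col6a2 window chr10:76623631-76623880 and the Col6a3 window chr1:90843972-90844221, all on the minus strand.
Col13a1: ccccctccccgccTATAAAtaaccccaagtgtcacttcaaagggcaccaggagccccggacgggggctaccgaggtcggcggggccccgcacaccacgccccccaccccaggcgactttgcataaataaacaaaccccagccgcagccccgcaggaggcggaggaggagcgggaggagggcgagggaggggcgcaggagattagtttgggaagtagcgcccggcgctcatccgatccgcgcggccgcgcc
Col8a1: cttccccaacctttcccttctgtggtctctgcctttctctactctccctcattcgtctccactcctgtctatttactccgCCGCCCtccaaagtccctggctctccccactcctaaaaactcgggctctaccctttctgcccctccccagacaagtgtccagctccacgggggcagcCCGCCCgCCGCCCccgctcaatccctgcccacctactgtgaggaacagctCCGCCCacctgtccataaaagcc
Col6a2: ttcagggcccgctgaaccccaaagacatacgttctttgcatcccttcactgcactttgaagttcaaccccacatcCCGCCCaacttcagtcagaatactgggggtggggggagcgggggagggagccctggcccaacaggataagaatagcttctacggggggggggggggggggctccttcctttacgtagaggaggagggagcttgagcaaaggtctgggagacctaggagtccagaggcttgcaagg
Col6a3: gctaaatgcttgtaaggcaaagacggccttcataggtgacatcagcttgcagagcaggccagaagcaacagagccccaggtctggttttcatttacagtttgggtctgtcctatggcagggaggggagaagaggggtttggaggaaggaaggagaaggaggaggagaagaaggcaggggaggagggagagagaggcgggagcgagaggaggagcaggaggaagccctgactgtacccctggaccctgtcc

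The motifs searched, on both strands, were the GC box GGGCGG, the TATA box TATAAA, the CCAAT box and GGAATG, which TEAD factors bind. None of the matches shown overlaps another motif. Col8a1 held 4 GC boxes and the Col6a2 window shown held 1. RefSeq gives Col6a2 another start, at 76623404, whose window held 3 GC boxes and 1 GGAATG, so its count depends on the start. Of all 32851 promoters of this length, 32.7% hold at least 1 GC box. Col13a1 held 1 TATA box, a match found in 12.4% of promoters. Col6a3 matched none of the 4 motifs. CCAAT and GGAATG, absent from these 4 windows, occur in 33.9% and 12.6% of promoters. The GC content was 68.8% for Col13a1, 60.8% for Col8a1, 59.2% for Col6a2 and 57.2% for Col6a3, against a median of 52.4% over all promoters. These matches describe the letters only.

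**Figure D1:**
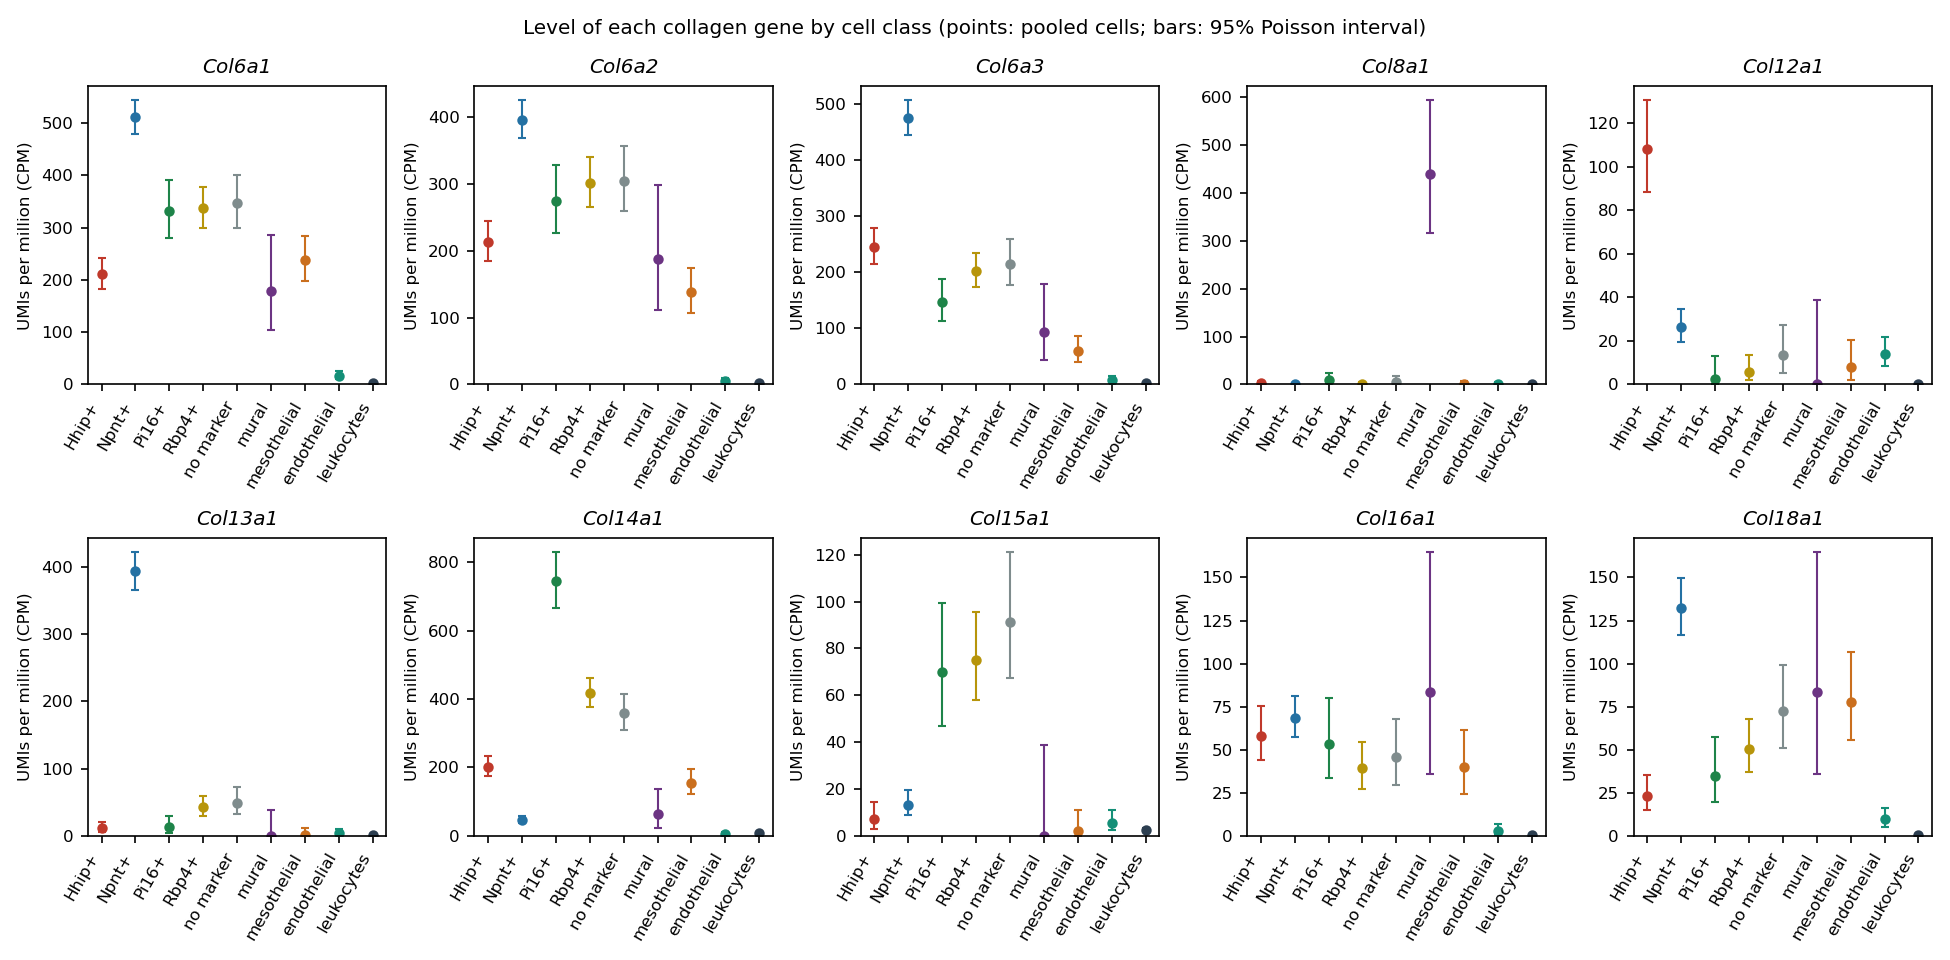
Level of each of the 10 genes in CPM (vertical axis from 0, own scale per gene) in the 4 marker classes, in mesenchymal cells with no marker, and in mural, mesothelial, endothelial cells and leukocytes; points are pooled cells and bars are 95% Poisson intervals. Col13a1 at 393.5 CPM in Npnt+ cells, Col14a1 at 744 CPM in Pi16+ cells, Col12a1 at 108 CPM in Hhip+ cells and Col8a1 at 440 CPM in mural cells stand apart from every other class. The collagen VI genes in Npnt+ cells do so too.

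The 3 collagen VI chains were broad and, with all suffixes pooled, stood highest in Npnt+ cells. Col6a1 (ENSMUSG00000001119, GRCm38 chr10:76708792-76726168, minus strand) was at 511 CPM (479 to 544) in Npnt+, 337 CPM in Rbp4+, 333 CPM in Pi16+ and 211 CPM (183 to 242) in Hhip+ cells. The Rbp4+, Pi16+ and marker-free classes overlapped, and the Npnt+ interval lay above them. Col6a2 (ENSMUSG00000020241, chr10:76595762-76623630, minus strand), which lies 85161 bases from Col6a1, had the same order of classes, at 396, 301, 274 and 213 CPM. Col6a3 (ENSMUSG00000048126, chr1:90765923-90843971, minus strand) was at 476 CPM (445 to 507) in Npnt+ cells, but Hhip+ cells came next at 246 CPM (215 to 279), ahead of Rbp4+ at 203 and Pi16+ at 147 CPM. The Pi16+ and Rbp4+ intervals of Col6a3 overlapped (113 to 187 and 174 to 235), and in suffix 1 their order was the other way round (134 and 123 CPM). In suffix 1 alone Col6a2 was at 292 CPM in Pi16+, 267 CPM in Rbp4+ and 256 CPM in Npnt+ cells. The Npnt+ interval of Col6a1 there (358 to 622) overlapped that of Rbp4+ cells (255 to 430). That of Col6a3 (260 to 491) overlapped the Hhip+ interval (214 to 337).

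Outside the fibroblast classes the chains were below their Npnt+ levels, though not below every marker class. Mural cells had 178 CPM of Col6a1 (17 UMIs), 188 CPM of Col6a2 and 94.2 CPM of Col6a3, and mesothelial cells had 238, 138 and 59.97 CPM. The Col6a1 level of mesothelial cells and the Col6a1 and Col6a2 levels of mural cells overlapped those of Hhip+ cells. In endothelial cells the 3 genes were at 16.8, 4.89 and 8.39 CPM, and in leukocytes at 3.72, 1.92 and 1.86 CPM. Mesenchymal cells held 87.4%, 89.7% and 90.0% of all UMIs of the 3 genes. The 81 epithelial cells had 49.0 CPM of Col6a1 (31.7 to 72.3) but only 9.80 CPM of Col6a2 and no UMI of Col6a3.

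Set against the other 3 marker classes, Col6a3 was 2.26-fold higher in Npnt+ cells (2.02 to 2.53, log2 1.18). Col6a1 and Col6a2 were 1.81-fold and 1.53-fold higher there, under the 2-fold line used throughout. Col6a1 was 2.09-fold lower in Hhip+ cells (1.80 to 2.43) and Col6a3 2.41-fold lower in Pi16+ cells (1.87 to 3.16). These 3 values lie close to the line. Col6a3 in Npnt+ cells had a log2 ratio of 0.84 in suffix 1 alone and of 0.99 with classes drawn from 2 of 3 markers. Col6a1 in Hhip+ cells was at -0.72 with a mesenchymal gate of 10 UMIs, and Col6a3 in Pi16+ cells at -0.86 in suffix 1 alone.

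Col8a1 (ENSMUSG00000068196, chr16:57624258-57754737, minus strand) was a mural gene in these data. It was at 440 CPM (317 to 594) in mural cells, from 42 of the 74 UMIs in all analysed cells (56.8%). The marker classes had 9.30 CPM in Pi16+ cells (4 UMIs, all in suffix 1), 2.04 CPM in Hhip+ cells (2 UMIs) and no UMI in Npnt+ or Rbp4+ cells. Mesothelial cells also had none, endothelial cells had 2 UMIs and leukocytes had 1. The mural level was 254-fold that of all mesenchymal cells (136 to 504, log2 7.99), whose own level was 1.73 CPM from 14 UMIs. Of the mural cells, 51.1% had a UMI (24 of 47). After each cell was thinned to 1500 UMIs the share was 48.5% (16 of 33 cells, 30.8 to 66.5%), against 0.32% of mesenchymal cells and 1 of 3353 leukocytes (0.030%, and 0.028% unthinned). Median depth was 1829 UMIs in mural cells and 3708 in leukocytes. In suffix 4 the mural level was 472 CPM, and in suffix 1 it was 276 CPM from 4 UMIs in 8 cells. The log2 ratio was 9.02 in suffix 4 alone, 5.35 in suffix 1 alone and 6.01 without suffix 4.

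The fibril-associated collagens split 3 ways. Col12a1 (ENSMUSG00000032332, chr9:79598991-79718831, minus strand) was highest in Hhip+ cells at 108 CPM (88.4 to 131). It was at 26.3 CPM in Npnt+ cells (19.6 to 34.6), 5.76 CPM in Rbp4+ and 2.33 CPM in Pi16+ cells, where 1 UMI was seen. Hhip+ cells thus stood 6.13-fold above the other marker classes (4.40 to 8.61, log2 2.61). In suffix 1 alone, Npnt+, Pi16+ and Rbp4+ cells had no UMI, and the log2 ratio was 3.58 with their sum set to a floor of 3 UMIs. Outside suffix 4 those 3 classes had 1 UMI in all, against 28 in Hhip+ cells. After thinning, 14.2% of Hhip+ cells (10.6 to 18.3%) and 2.52% of Npnt+ cells had a UMI, against 19.8% and 5.83% unthinned. Of leukocytes, 0.060% had 1 after thinning and 0.11% unthinned. Endothelial cells had 13.98 CPM of Col12a1 (8.54 to 21.6), above the 0.26 CPM of leukocytes, and mural cells had none, a count whose 95% interval reaches 38.6 CPM.

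Col14a1 (ENSMUSG00000022371, chr15:55307750-55520803, plus strand) was graded across the classes. It was at 744 CPM (665 to 830) in Pi16+ cells, 417 CPM (375 to 463) in Rbp4+ cells, 203 CPM (176 to 233) in Hhip+ cells and 48.0 CPM (38.8 to 58.8) in Npnt+ cells. No pair of these intervals overlapped. Marker-free cells (360 CPM) overlapped Rbp4+ cells, and mesothelial cells (156 CPM) overlapped Hhip+ cells. Mural cells had 62.8 CPM from 6 UMIs, endothelial cells 6.99 CPM and leukocytes 8.34 CPM. Pi16+ cells were 4.31-fold (3.76 to 4.93, log2 2.11) and Rbp4+ cells 2.28-fold (1.999 to 2.60, log2 1.19) above the other marker classes, and Npnt+ cells were 8.05-fold below them (6.49 to 10.1, log2 -3.01). In suffix 1 alone the Pi16+ log2 ratio was 1.14 and Npnt+ cells had 2 UMIs. Without suffix 4 the ratios were 1.36 and -4.25, the latter on 5 UMIs.

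The Rbp4+ value of Col14a1 rested on how the class was drawn. With classes drawn from 2 of 3 markers (Rbp4, Adam23 and Aox3 for this class) it turned to a log2 ratio of -0.19, and in suffix 1 alone it was 0.87. It was also under 2-fold without suffix 4 (0.99), with the 10-UMI gate (0.61), with the marker at 2 UMIs (0.89), against all other mesenchymal cells (0.67) and with the other classes weighted equally (0.33). The Rbp4+ class had 1903 CPM of the adventitial list beside it. The share of cells with a Col14a1 UMI after thinning was 64.2% in Pi16+, 44.8% in Rbp4+, 24.2% in Hhip+ and 6.54% in Npnt+ cells, against 1.19% of leukocytes. Unthinned shares were 78.4%, 61.7%, 35.9% and 11.8%, against 2.69%.

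Col16a1 (ENSMUSG00000040690, chr4:130047840-130099283, plus strand) had every ratio between marker classes under 2-fold in the main setting, as had Col6a2. Under alternative settings the log2 ratio reached -1.14 for Col16a1 in Rbp4+ cells and -1.155 for Col6a2 in Hhip+ cells. It was at 68.7 CPM in Npnt+ (57.5 to 81.4), 58.1 CPM in Hhip+, 53.5 CPM in Pi16+ and 39.2 CPM (27.2 to 54.8) in Rbp4+ cells. The Npnt+ and Rbp4+ intervals were apart, and the other pairs overlapped. Ratios to the other marker classes lay between -0.70 (Rbp4+) and 0.46 (Npnt+) on the log2 scale, and the Hhip+ value was -0.02 with an interval of 0.72 to 1.34-fold. Mural cells had 83.7 CPM from 8 UMIs and mesothelial cells 40.0 CPM, while endothelial cells had 2.80 CPM.

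Col13a1 (ENSMUSG00000058806, chr10:61838236-61979108, minus strand) was held most closely to 1 marker class. It was at 393.5 CPM (366 to 422) in Npnt+ cells, 42.7 CPM (30.0 to 58.8) in Rbp4+, 13.95 CPM in Pi16+ and 12.2 CPM in Hhip+ cells. Npnt+ cells, which were 652 of 2485 mesenchymal cells, held 54.2% of its UMIs. They stood 16.3-fold above the other marker classes (12.4 to 21.8, log2 4.03). Hhip+ cells were 20.4-fold lower (11.6 to 39.6), Pi16+ cells 15.4-fold lower (7.02 to 42.0) and Rbp4+ cells 5.46-fold lower (3.93 to 7.82) than their own references, which include Npnt+ cells. The Rbp4+ value was -0.97 on the log2 scale with classes drawn from 2 of 3 markers, against -2.45. Cells with several markers had 111 CPM, and with them in the reference the Npnt+ log2 ratio was 2.42. In suffix 1 alone the Npnt+ log2 ratio was 4.96 and the Rbp4+ ratio -1.45, and without suffix 4 the Npnt+ ratio was 4.97. All 6 UMIs of Pi16+ cells were in suffix 4.

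After thinning, 42.6% of Npnt+ cells (38.6 to 46.7%) had a Col13a1 UMI, against 6.13% of Rbp4+, 2.75% of Pi16+, 1.47% of Hhip+ cells and 0.27% of leukocytes. Unthinned, the shares were 61.7%, 10.9%, 4.48%, 2.72% and 0.69%. Mural cells had no UMI, mesothelial cells had 1 UMI and endothelial cells had 4.89 CPM.

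With all suffixes pooled, the multiplexins went to different classes. Col15a1 (ENSMUSG00000028339, chr4:47208161-47313167, plus strand) was at 74.9 CPM (57.8 to 95.5) in Rbp4+ and 69.8 CPM (47.1 to 99.6) in Pi16+ cells, which did not differ beyond their intervals. It was at 13.4 CPM in Npnt+ and 7.13 CPM in Hhip+ cells. Marker-free cells had 91.5 CPM (67.5 to 121), the highest of all classes, overlapping Rbp4+ and Pi16+ cells. Rbp4+ cells were 3.98-fold (2.77 to 5.72) and Pi16+ cells 2.69-fold (1.73 to 4.09) above the other marker classes. Against all other mesenchymal cells these were under 2-fold, at log2 ratios of 0.82 and 0.64. In suffix 1, Pi16+ cells had 1 Col15a1 UMI, and 28 of the 30 UMIs came from suffix 4. The Rbp4+ log2 ratio was 2.90 in suffix 1 alone and 2.95 without suffix 4, against 1.99. Shares after thinning were 10.8% of Rbp4+, 9.17% of Pi16+, 1.68% of Npnt+, 1.18% of Hhip+ cells and 0.36% of leukocytes, against 17.7%, 14.9%, 3.22%, 1.73% and 1.08% unthinned.

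Col18a1 (ENSMUSG00000001435, chr10:77052178-77166548, minus strand) was at 132 CPM (117 to 149) in Npnt+, 50.7 CPM in Rbp4+, 34.9 CPM in Pi16+ and 23.4 CPM (14.9 to 35.2) in Hhip+ cells. Npnt+ cells were 3.67-fold above (2.85 to 4.77) and Hhip+ cells 4.16-fold below (2.72 to 6.66) the other marker classes. Pi16+ cells were 2.45-fold below them (1.46 to 4.42, log2 -1.29), but in suffix 1 alone the log2 ratio turned to 1.09 on 6 UMIs, and without suffix 4 it was -0.0015. The Npnt+ log2 ratio was 0.55 in suffix 1 alone, where the class had 6 UMIs. Npnt+ cells did not lead there, at 53.0 CPM (19.4 to 115). Pi16+ cells were at 72.9 CPM (26.7 to 159) and mesothelial cells at 102 CPM (33.1 to 238), with overlapping intervals. Mural cells (83.7 CPM from 8 UMIs, 36.1 to 165) and mesothelial cells (78.0 CPM, 55.4 to 107) overlapped the 72.4 CPM of marker-free cells. The mural interval also overlapped that of Npnt+ cells. After thinning, 18.1% of Npnt+ cells had a UMI and 2.95% of Hhip+ cells, against 29.6% and 4.95% unthinned, and 0.060% of leukocytes against 0.33% unthinned. Slc19a1 overlaps Col18a1 on the other strand and had 62 UMIs in mesenchymal cells, and no source used here gives the strand setting of the counting.

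**Figure D2:**
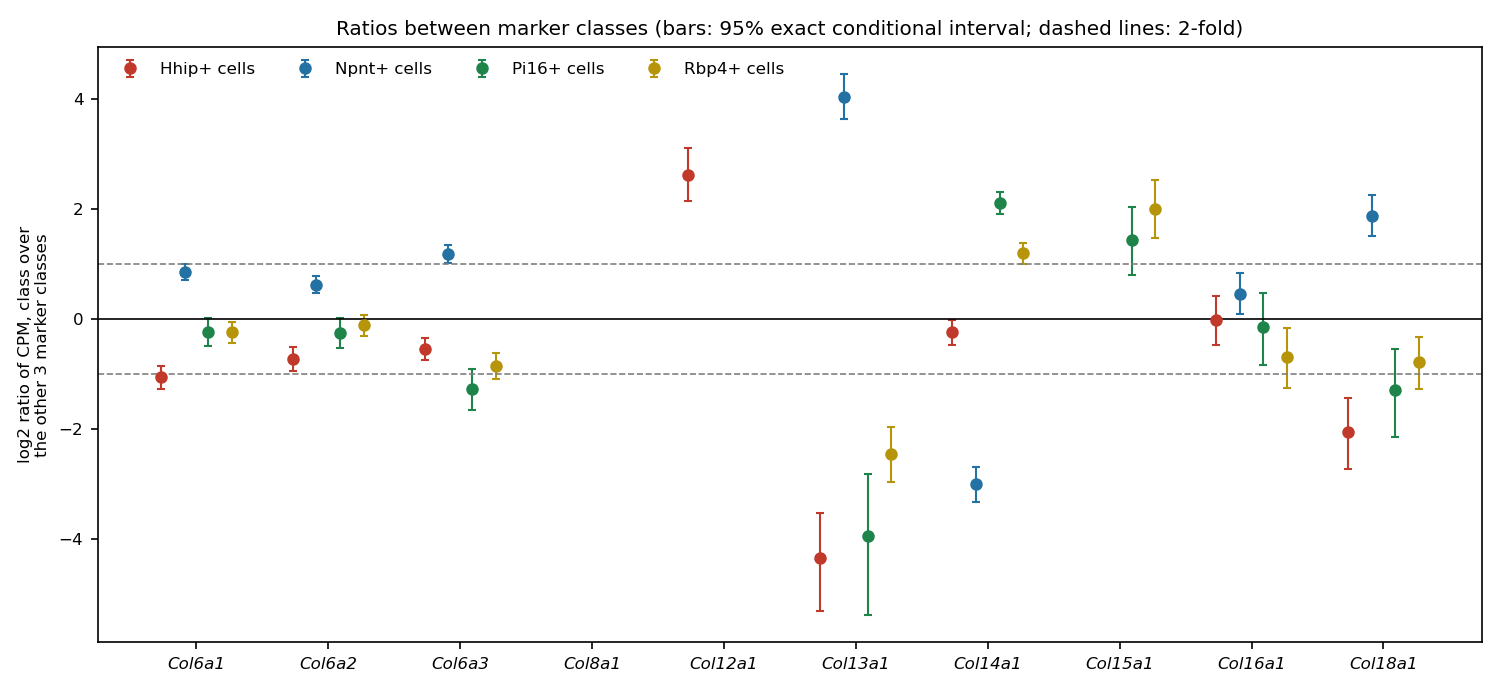
Log2 ratio of CPM in each marker class over the other 3 marker classes (vertical axis) for the 10 genes (horizontal axis), drawn only where a group reached 50 CPM; bars are 95% exact conditional intervals and dashed lines mark 2-fold. Col13a1 spans from 4.03 in Npnt+ cells to -4.35 in Hhip+ cells, Col14a1 from 2.11 in Pi16+ to -3.01 in Npnt+ cells, and Col16a1 stays between the dashed lines.

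Counted over the 10 genes, each class had its own set past 2-fold among genes at 50 CPM or more in a group. In Hhip+ cells 1 of 8 measured members was higher (Col12a1), where 6.44% of all 3573 measured genes were higher. The 3 lower members were Col6a1, Col13a1 and Col18a1, where 12.0% of all genes were lower. In Npnt+ cells 3 of 7 were higher (Col6a3, Col13a1 and Col18a1; 10.0% of all genes) and 1 was lower (Col14a1; 6.35% of all genes). In Pi16+ cells 2 of 8 were higher (Col14a1 and Col15a1; 6.71% of all genes) and 3 were lower (Col6a3, Col13a1 and Col18a1; 9.05% of all genes). In Rbp4+ cells 2 of 8 were higher (again Col14a1 and Col15a1; 3.04% of all genes) and Col13a1 was lower (6.11% of all genes). Median log2 ratios of the measured members were -0.64 in Hhip+, 0.86 in Npnt+, -0.25 in Pi16+ and -0.47 in Rbp4+ cells, against 0.06, 0.05, -0.05 and -0.07 over all measured genes. The members were chosen with results of these data known, so these counts are a description.

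Mural cells were set against all mesenchymal cells. Col8a1 was the only measured member past 2-fold upward (1 of 8, where 22.1% of all genes were higher). Lower were Col14a1 (4.43-fold, 2.03 to 12.1), Col6a3 (3.24-fold, 1.70 to 7.10) and Col6a1 (2.20-fold, 1.37 to 3.78). Col13a1 was also lower, with 0 UMIs (4.78-fold when set to 3 UMIs). The interval of its mural level reached 38.6 CPM, against 150 CPM in mesenchymal cells. Of all genes, 9.99% were lower in mural cells. In suffix 1 the class had 8 cells, in which 3 UMIs make 207 CPM. Col6a1, Col13a1 and Col14a1 had no UMI there and Col6a3 had 2, too few to show a 2-fold difference. Col6a2, Col16a1 and Col18a1 differed by less than 2-fold. The members' median was -0.93, against 0.31 over all genes.

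Mesothelial cells had no member past 2-fold upward among 7 measured, where 13.2% of all genes were higher. Col6a3 was 5.09-fold lower (3.56 to 7.56) and Col6a2 2.24-fold lower (1.76 to 2.89), while Col6a1 was 1.65-fold lower, so the 3 chains were lower to unequal degrees. Col13a1 was also lower, with 1 UMI and a ratio whose interval reached up to 0.0744. Of all genes, 14.3% were lower in these cells. In suffix 1, with 12 mesothelial cells, Col6a2 and Col6a3 were within 2-fold and Col13a1 had no UMI, and without suffix 4 Col6a2 was at -0.28. Col14a1 (1.79-fold lower) and Col18a1 (1.07-fold higher) were under the line, with log2 ratios of -2.21 and 1.33 in suffix 1 alone.

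Endothelial cells had none of 7 measured members higher, where 22.0% of all genes were higher, and all 7 lower, where 15.9% of all genes were lower. The differences ran from 7.43-fold for Col18a1 (4.39 to 13.7), the gene whose endostatin fragment was found through its action on endothelium, to 63.1-fold for Col6a2 (30.6 to 157). In suffix 1 Col18a1 and Col6a2 each had 1 UMI in endothelial cells (5.41 CPM), and in suffix 4 alone the Col18a1 log2 ratio was -1.61 on 7 UMIs. The level of 9.79 CPM for Col18a1 (5.35 to 16.4) was above that of leukocytes, 0.77 CPM (0.40 to 1.34). Endothelial cells that entered the sort had escaped a CD31 gate. Without gate genes, they carried 481 CPM of the leukocyte list and 1455 CPM of the epithelial list, whose part was not tested.

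Lists of related genes, 3 in all, give the surroundings, to be read against the shares of all measured genes given above for each comparison (in mural cells 22.1% higher and 9.99% lower, in mesothelial cells 13.2% and 14.3%, in endothelial cells 22.0% and 15.9%). Of 23 other non-fibrillar collagens only 4 were measured in each marker class. Col23a1, a transmembrane collagen like Col13a1, was 5.002-fold higher in Npnt+ cells (3.72 to 6.82) and 14.6-fold lower in Hhip+ cells, and Col4a2, a basement membrane chain, was 2.23-fold higher in Npnt+ and 2.01-fold lower in Hhip+ cells. Pi16+ cells had 1 lower (Col23a1, 2.67-fold) and Rbp4+ cells none past 2-fold. In mural cells Col4a1 and Col4a2 were 5.31-fold and 4.59-fold higher and Col23a1 (1 UMI) and Col4a5 (3 UMIs) lower, with ratios whose intervals ran from 0.0041 to 0.91 and from 0.094 to 1.35. Mesothelial cells had Col4a4 7.74-fold higher and Col23a1, Col4a1 and Col4a2 lower, and endothelial cells had Col23a1 and Col4a5 lower.

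Among 13 collagen receptors, 5 were measured in each marker class. Mrc2, an endocytic collagen receptor, was 5.88-fold higher in Npnt+ cells (4.72 to 7.41) and lower in Hhip+ (5.94-fold), Pi16+ (2.504-fold) and Rbp4+ cells (3.21-fold). Antxr2, which binds collagen VI, was 3.37-fold lower in Hhip+ cells. Mural cells had the integrin gene Itga1 38.5-fold (19.4 to 72.9), Cspg4, a proteoglycan that binds collagen VI, 17.0-fold and Itgb1 3.05-fold higher. Mrc2 had no UMI there (3.60-fold lower when set to 3 UMIs). Mesothelial cells had Ddr1 4.64-fold higher and Antxr2, Ddr2 and Mrc2 lower, and endothelial cells had Itga1 40.0-fold higher and Antxr1, Ddr2 and Mrc2 lower.

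The third list holds 19 matrix partners of collagen VI and of the fibril-associated collagens. Dcn, which encodes the proteoglycan decorin that binds collagens VI and XIV, was at 6804 CPM in Pi16+ and 3754 CPM in Rbp4+ cells, 5.48-fold and 2.87-fold above the other classes, and 14.8-fold lower in Npnt+ cells. Fbln1 was higher in Pi16+ (2.91-fold) and Rbp4+ cells (2.20-fold). Fbln2 was 11.6-fold higher in Pi16+ cells (8.33 to 16.2) and 3.48-fold lower in Npnt+ cells, and Fmod 2.49-fold higher in Rbp4+ cells. Npnt+ cells had Tnc, a matrix glycoprotein, 6.22-fold and Fn1 5.65-fold higher, for 2 of 13 measured higher (10.0% of all genes) and 3 lower (6.35%). Hhip+ cells had 2 of 11 lower (Fn1 14.8-fold and Nid1 4.10-fold; 12.0% of all genes). Pi16+ cells had 3 of 12 higher (6.71% of all genes). Rbp4+ cells had 3 of 12 higher (3.04%) and Fn1 5.58-fold lower. Mural cells had 2 of 14 higher, Postn 172-fold (127 to 236) and Nid2 10.6-fold on 5 UMIs (3.26 to 26.8), and 4 lower, led by Dcn (12.6-fold) and Fbln1 (6.88-fold, on 5 UMIs). Mesothelial cells had 3 of 14 higher, led by Nid2 (21.5-fold) and Fmod (4.03-fold), and 7 lower, led by Bgn (4.97-fold) and Nid1 (4.23-fold). Endothelial cells had all 12 measured lower, led by Col3a1 (56.4-fold), which helps to draw the mesenchymal cells, Col1a1 (48.0-fold), Col5a1 (3 UMIs, 16.2 to 230.5-fold) and Dcn (39.1-fold).

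Exclusion between the collagens was then counted within cells. Over 2200 mesenchymal cells thinned to 1500 UMIs, 402 had a Col13a1 UMI and 589 a Col14a1 UMI. Only 36 had both, where independent detection would give 107.6, a ratio of 0.33 (0.23 to 0.46). Thinning draws UMIs at random, so the draw was repeated 20 times, and this ratio lay between 0.23 and 0.41 with a median of 0.33. Col14a1 was detected in 8.96% of cells with Col13a1 and in 30.8% of cells without it. In unthinned cells, 127 cells had 3 or more Col13a1 UMIs, 294 had 3 or more Col14a1 UMIs and 0 had both. At 2 UMIs there were 303, 519 and 11. The pair was thus rarely joined where either RNA was rich, while a small set of cells carried low counts of both.

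**Figure D3:**
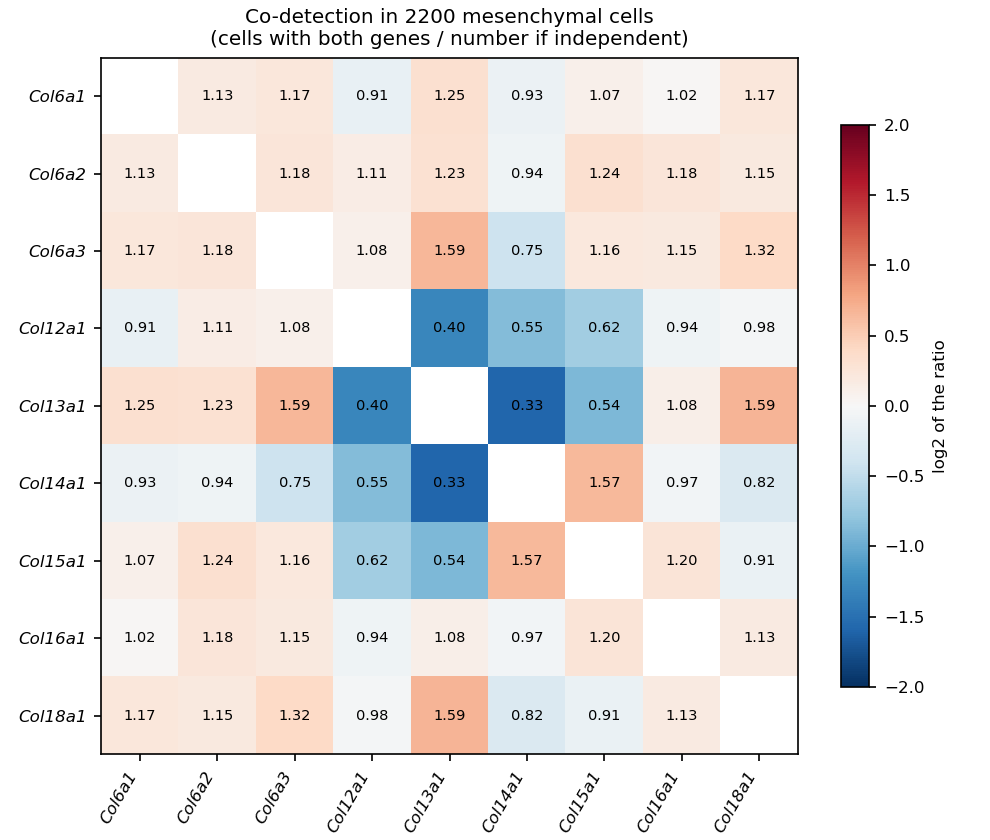
Cells with both genes divided by the number that independent detection would give, for each pair of 9 genes (Col8a1, seen in 7 cells, left out) in 2200 mesenchymal cells thinned to 1500 UMIs; red is above 1 and blue below, on a log2 colour scale. The lowest value is 0.33 for Col13a1 with Col14a1, and the highest in the draw shown are 1.59 for Col13a1 with Col18a1 and with Col6a3 and 1.57 for Col14a1 with Col15a1, whose medians over 20 other draws are 1.71, 1.40 and 1.74.

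Each of these genes was lower in cells with more UMIs of the other. Col14a1 was at 306 CPM in the 1798 cells with no Col13a1 UMI, at 93.96 CPM in the 298 cells with 1 and had 1 UMI in the 104 cells with 2 or more (6.41 CPM, 0.16 to 35.7). Col13a1 was at 209 CPM, 51.3 CPM and 21.5 CPM (7.89 to 46.8) over cells with 0, 1 and 2 or more Col14a1 UMIs. Within Npnt+ cells alone the pair's ratio was 0.66 (0.33 to 1.18), with 11 cells where independence would give 16.6, and 0.44 to 0.91 over the 20 other draws. In Rbp4+ cells it was 0.86 on 5 cells (0.28 to 1.97), and 0.18 to 1.19 over the draws. The interval includes 1 within each of these classes.

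A second group of pairs went together instead. Col14a1 and Col15a1 were found in the same cell 1.57 times as often as independence gives (47 cells against 29.99, 1.15 to 2.08), and 1.41 to 1.96 times over the 20 other draws. Col15a1 was at 28.6, 52.9 and 86.0 CPM over cells with 0, 1 and 2 or more Col14a1 UMIs. Col13a1 and Col18a1 had a ratio of 1.59 (1.24 to 2.01), with 1.54 to 2.06 over the draws, and Col18a1 was at 68.6, 125 and 135 CPM by Col13a1 UMIs. Within Npnt+ cells the ratio of Col13a1 and Col18a1 was 0.9994 (0.74 to 1.32), and 0.98 to 1.26 over the draws. Col14a1 with Col15a1 was at 0.87 within Rbp4+ cells (0.40 to 1.63) and at 1.25 within Pi16+ cells (0.55 to 2.37), where 8 of the 10 cells with Col15a1 also had Col14a1.

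The remaining pairs of restricted genes moved with the draw and the depth. Col13a1 with Col15a1 was at 0.54 (0.27 to 0.96), and 0.42 to 0.89 over the 20 other draws, but at 1.10 in suffix 1 alone and at 1.0038 when cells were thinned to 1000 UMIs. Col12a1 with Col13a1 was at 0.40 (0.16 to 0.83), below each of the 20 other draws (0.58 to 0.96, median 0.77). Col12a1 with Col14a1 was at 0.55 (0.30 to 0.92), also below each other draw (0.65 to 0.995, median 0.83). Without thinning these Col12a1 pairs stood at 0.88 and 0.99, and at 2 UMIs, where 36 cells had Col12a1, they stood at 1.14 and 0.40. Exclusion of Col12a1 from Col13a1 or Col14a1 was therefore not resolved in single cells. Col12a1 with Col15a1 was at 0.62 on 3 cells (0.13 to 1.81), and 0 to 0.84 over the 20 other draws (median 0.42). Over Col12a1, Col13a1, Col14a1 and Col15a1 together, 983 cells had exactly 1 of the 4 (823 if independent) in the seed 0 draw. In it 97 had 2 (170.2 if independent), 7 had 3 (11.4 if independent) and none had all 4. These counts were not repeated over the other draws. This draw is the one with Col12a1 with Col13a1 and Col12a1 with Col14a1 both below each other draw. Col13a1 with Col14a1 alone had 36 cells with both against 107.6, so the counts do not show exclusion among all 4.

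The collagen VI chains were found together slightly more often than independence gives. Col6a1 and Col6a2 had a ratio of 1.13 (1.03 to 1.24), Col6a2 and Col6a3 of 1.18 (1.06 to 1.31) and Col6a1 and Col6a3 of 1.17 (1.06 to 1.29). The Col6a1 and Col6a2 value was 0.96 in suffix 1 alone and 0.995 without suffix 4. With Col14a1, Col6a1 and Col6a2 lay at 0.93 and 0.94, and with Col13a1 at 1.25 and 1.23. Col6a3 leaned further, at 0.75 with Col14a1 (0.64 to 0.88) and 1.59 with Col13a1 (1.39 to 1.81), against 0.70 to 0.89 and 1.31 to 1.496 over the 20 other draws. The latter all lie below 1.59. Col6a3 was at 268, 562 and 641 CPM (522 to 779.7) over cells with 0, 1 and 2 or more Col13a1 UMIs, and at 359, 246 and 211 CPM (161 to 273) by Col14a1 UMIs. Within Npnt+ cells the ratio of Col6a3 and Col13a1 was 1.14 (0.98 to 1.32), and 0.997 to 1.11 over the draws.

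**Figure D4:**
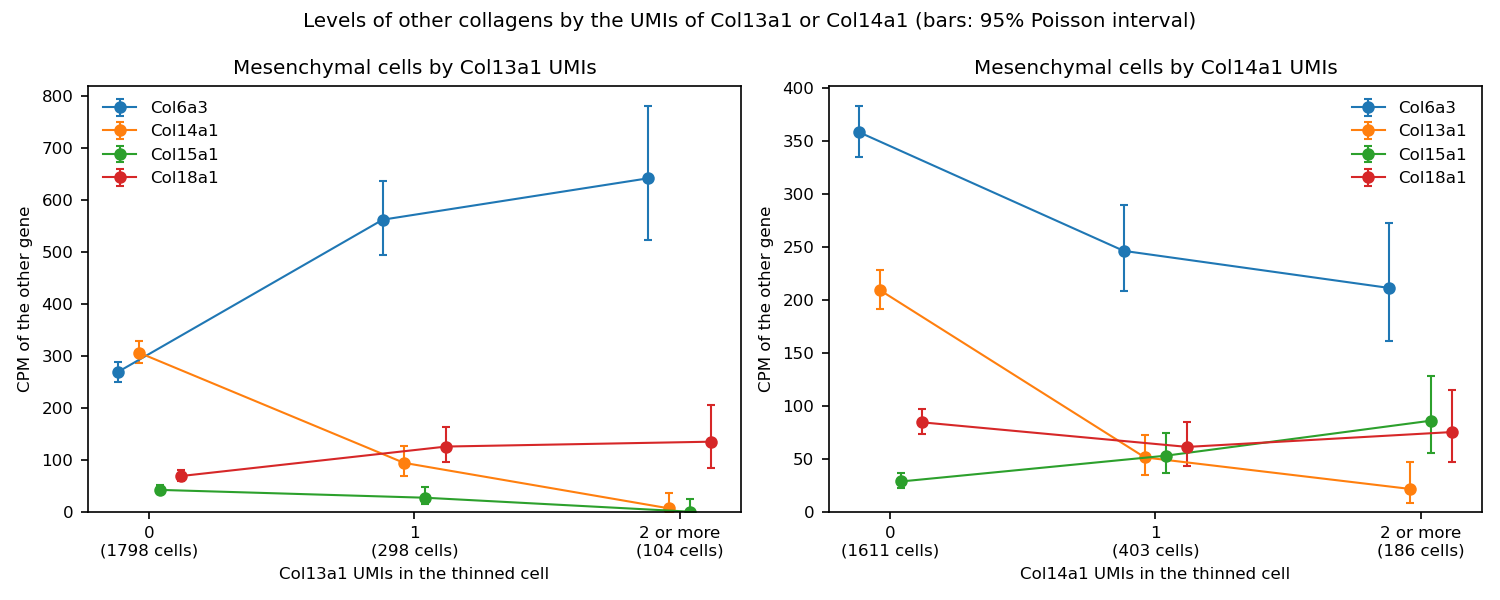
Level of Col6a3, Col14a1 or Col13a1, Col15a1 and Col18a1 in CPM (vertical axis, from 0) in thinned mesenchymal cells with 0, 1 or 2 and more UMIs of Col13a1 (left) or Col14a1 (right); bars are 95% Poisson intervals. Col14a1 goes from 306 to 6.41 CPM with Col13a1 UMIs while Col6a3 goes from 268 to 641 CPM, and Col15a1 goes from 28.6 to 86.0 CPM with Col14a1 UMIs.

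Suffixes 1 and 4, the parts of the table with most mesenchymal cells, gave the same leading class for Col12a1, Col13a1 and Col14a1. In Npnt+ cells Col13a1 was at 450 CPM (335 to 592) in suffix 1, and suffix 4 gave 378 CPM (349 to 408). In Pi16+ cells the Col14a1 values were 632 CPM (472 to 828) and 791 CPM (695 to 896), and Col12a1 in Hhip+ cells at 95.9 and 114 CPM. These pairs overlapped. Col14a1 in Hhip+ cells was at 264 CPM (208 to 330) in suffix 1, while suffix 4 gave 177 CPM (147 to 211), with intervals that barely overlapped. Col6a1 in Hhip+ cells went the other way, at 137 CPM (97.9 to 187) and 243 CPM (207 to 283), as did Col6a2 at 130 and 250 CPM, and those intervals did not overlap. Col18a1 in Npnt+ cells was at 53.0 CPM (19.4 to 115) in suffix 1, against 134 CPM (117 to 153), also apart. Suffixes differ in median depth (1886 and 3634 UMIs) and in sex, and gate and day are not known for them, so these cannot be told apart.

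**Figure D5:**
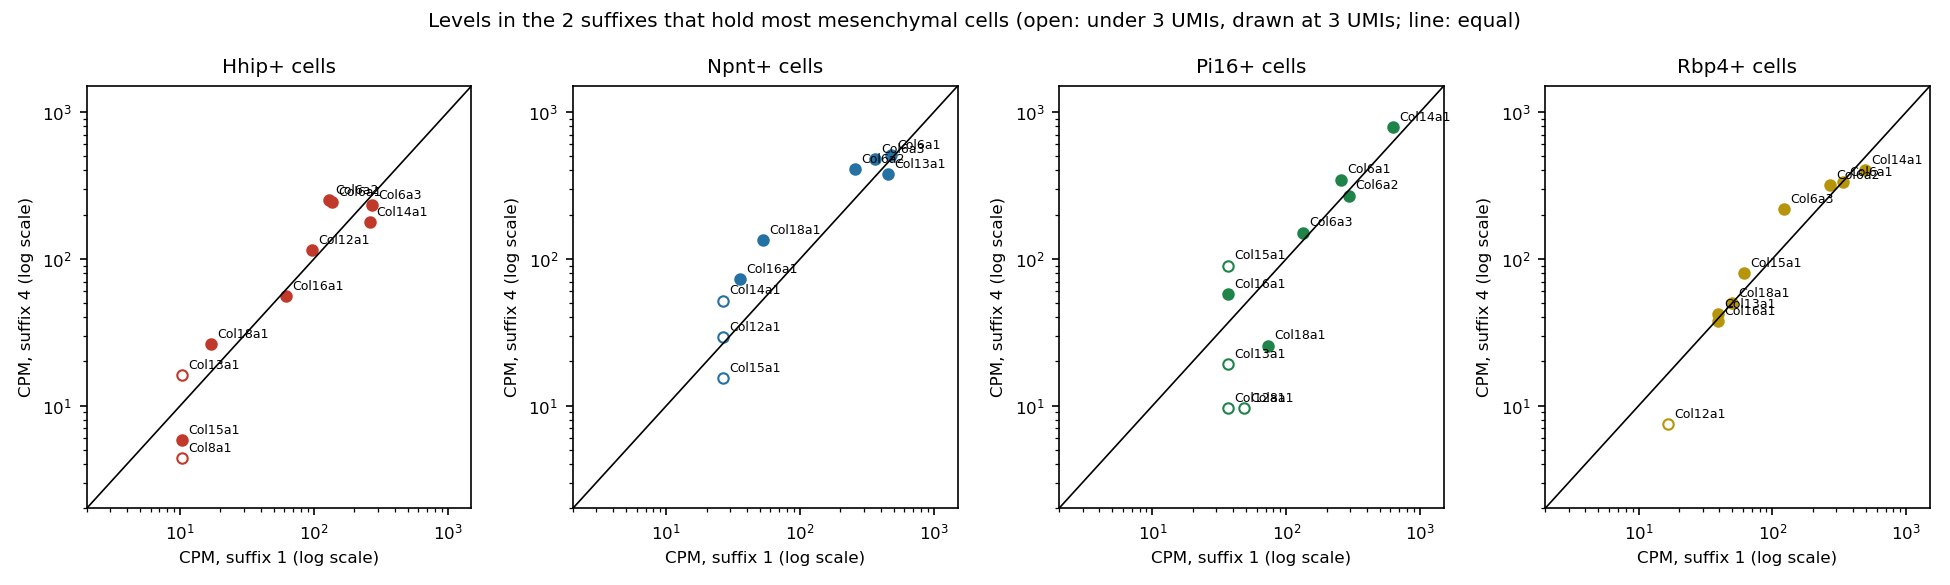
Level of each gene in suffix 4 against suffix 1, in CPM on log axes, 1 panel for each marker class; open points had under 3 UMIs in a suffix and are drawn at 3 UMIs, and the line marks equal levels. Col14a1 in Pi16+ cells (632 and 791 CPM) and Col13a1 in Npnt+ cells (450 and 378 CPM) lie close to the line, and Col18a1 in Pi16+ cells (72.9 and 25.6 CPM) lies below it.

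Likeness of pattern was measured by Pearson's r of log2(CPM + 10) over 17 profiles of class by suffix with 20 or more cells, against 3949 genes at 100 CPM or more in a profile. The profiles share depth and free RNA within a suffix, and 6 of them are endothelial, so r is a description. Col13a1 was most like Gyg, Prkg2 and Slc38a5 (r = 0.958, 0.958 and 0.952), and Col14a1 most like Dcn, Olfml2b and Ank2 (0.958, 0.955 and 0.955). Col15a1 was led by Lgi2 (0.864), Rps4x and Scara5, and Col12a1 by Lgr6, Tcap and Gper1 (each near 0.815), the lowest leading values of the set. Col8a1 was most like Art3, Trpc6 and 9230104L09Rik (0.908, 0.901 and 0.898), which rests on the 1 mural profile. Col6a1 was led by Mgp, Pcolce and Fxyd1 (0.978, 0.977 and 0.972), Col6a2 by Fxyd1, Lama2 and Col5a1 (0.973, 0.972 and 0.971) and Col6a3 by Sod3, Nupr1 and Lrp1 (0.980, 0.973 and 0.966). Col16a1 was led by Arhgef25, P3h3 and Lgals1 (0.970, 0.948 and 0.948), and Col18a1 by Cd81, Smim7 and Dbi (0.912, 0.908 and 0.893). Among the members, Col6a1 and Col6a2 were most alike (0.966), and Col13a1 with Col14a1 was at -0.01.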

How the data were processed

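Whole UMI counts per gene and barcode, not normalized, make up the deposited count table (per the file headers and values). The submitters' processing notes name STAR 2.5.1, Cell Ranger 1.3.0 and mm10, and cell calling was not given in the sources used here. A second deposited table holds a signal of 19562 genes scaled to 2631.5 per barcode, used as an alternative only.

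Kept were 9994 barcodes (500 genes or more, mitochondrial UMIs at most 10%), from which Scrublet (scanpy 1.11.5, per suffix, seed 0) removed 75 doublets (0.75%). UMIs were summed over the cells of a class and given as CPM with exact Poisson intervals, shares of cells with exact Clopper-Pearson intervals, and ratios with exact conditional binomial intervals (scipy 1.17.1, numpy 2.4.6). A gene was measured at 50 CPM or more in a group and counted at 2-fold or more, with groups under 3 UMIs set to 3 UMIs. All intervals cover counting error only. Ratios and intervals were tested on simulated data.

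Cells were thinned to 1500 UMIs with seed 0, leaving out shallower cells (285 of 2485 mesenchymal cells). After a first set of results had been seen, the thinning was changed so that each cell has its own random stream, because values from the earlier stream depended on which other cells were thinned. The values from 20 other draws were added then too.

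All 10 members are named. Of each related list, genes past 2-fold were named, at most 4 a class by size of ratio, and the 3 most alike genes per member. The members, lists and rules were chosen with earlier results of these data known. With no map from suffix to sample, gates and days were not analysed here. Alternatives covered the cell filter, doublets, gates, markers, references, scaling, minima, suffixes and thinning.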

Additional observations from a re-analysis of the deposited data

How the results depend on the processing

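Of 31 ratios past 2-fold, 16 stayed past it under every alternative that gave a value. Over 401 alternative values of the 31, 399 kept their direction, 365 were past 2-fold (values bounded by the 3-UMI floor included) and 2 turned: Col18a1 in Pi16+ cells to 1.09 in suffix 1 alone and Col14a1 in Rbp4+ cells to -0.19 with 2 of 3 markers. The cause was not tested for any change below. A further 22 ratios were under 2-fold with all cells, and some passed it under an alternative. In marker classes these were Col6a1 in Npnt+ (1.15), Col6a2 in Hhip+ (-1.155), and Col6a3 (-1.13) and Col16a1 (-1.14) in Rbp4+ cells. In mesothelial cells they were Col14a1 (-2.21), Col16a1 (-1.37) and Col18a1 (1.33). The 5 members counted in Pi16+ cells became 3 in suffix 1 alone, 3 without suffix 4 and 3 at a 100 CPM minimum, where fewer genes are measured. The 3 in Rbp4+ cells became 1 with 2 of 3 markers and 1 against all other mesenchymal cells. The 5 in mural cells became 1 in suffix 1 alone, where 8 cells leave 3 of the 5 with no UMI, and the 3 in mesothelial cells became 5 with the 10-UMI gate and 5 at a 20 CPM minimum, where more genes are measured. The Col13a1 and Col14a1 co-detection ratio was 0.23 in suffix 1 alone, 0.14 without suffix 4, 0.48 unthinned, 0.17 at 2 UMIs and 0.23 in the lowest of 20 other thinning draws (added after seeing the data), below 1 in each of these. Col12a1 with Col14a1 was 0.95 at 1000 UMIs, 0.99 unthinned and 0.995 in the highest draw. Col12a1 with Col13a1 was 0 in suffix 1 alone, 0 without suffix 4, 0.956 at 1000 UMIs, 0.88 unthinned and 0.96 in the highest draw, and turned to 1.14 at 2 UMIs. Col13a1 with Col15a1 turned to 1.10 in suffix 1 alone and to 1.0038 at 1000 UMIs. Col14a1 with Col15a1 was 1.11 in suffix 1 alone and 2.56 at 2 UMIs. Col6a1 with Col6a2 turned to 0.96 in suffix 1 alone and 0.995 without suffix 4, and was 1.47 at 2 UMIs. Median-of-ratios scaling moved all genes by 0.14 (log2) in mural and 0.14 in endothelial cells. Suffix 1 alone, and for some genes the table without suffix 4, gave no value for Col15a1 in Pi16+ cells, Col13a1, Col16a1 and Col18a1 in mural cells and Col16a1 in mesothelial cells, on too few UMIs. No paired analysis was possible because no result comes from a test and no suffix is tied to a labelled sample.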
